A study of Drosophila melanogaster with 2 samples.

Results

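The 468 peaks described here are the thresholded regions on the X chromosome in a chromatin immunoprecipitation and sequencing (ChIP-seq) study of CG11398, chosen as every row of the dm6 thresholded list placed on X, of 2712 in all. Whole Drosophila melanogaster embryos, 0 to 24 h old and of both sexes pooled, came from a transgenic line, strain CG11398-GFP, that stably expresses the fusion CG11398-eGFP, tagged at its C terminus. Chromatin was immunoprecipitated with an antibody to GFP. The samples formed 1 group of 2 biological replicates, numbered 1 and 3, with no untagged or untreated group among them. Each list holds signal from all embryonic stages and cell types together, and nothing in it separates them. The labels do not say which promoter drives the transgene or where it sits in the genome.

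The X chromosome of Drosophila is present as a pair in females and singly in males. Males raise the output of its genes through the dosage compensation complex, which includes the RNAs roX1 and roX2 and spreads from high-affinity sites rich in GA repeats. A ChIP-seq peak marks where the tagged protein, or chromatin that is recovered easily, gathers on DNA. The lists cannot tell these apart, and the copy number of X in pooled male and female embryos was not measured.

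The authors' signal value, whose normalization is not stated, was used to rank and describe regions. Over the X peaks it ran from 79.8 to 1234, with a median of 115.3 and quartiles of 93.7 and 164. The list of pooled relaxed regions, which keeps weak background regions on purpose, held 4860 regions on X. Of these, 574 overlapped a thresholded peak, or 11.8%. Of the 30000 relaxed regions on all arms, 4286 on X and 22362 on the other arms overlapped no peak. Ranges in brackets after a share are exact 95% intervals, which cover counting error only, and read depth is unknown.

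The strongest X peaks are shown with 50 bp on either side of the summit, together with the strongest peak of each of the 3 largest clusters of peaks on X, because they are the sequences under the highest signal. All are from the plus strand of dm6 (Release 6), and capitals mark a match to any of the 8 motifs searched.
Ugalt chrX:2703829-2703929: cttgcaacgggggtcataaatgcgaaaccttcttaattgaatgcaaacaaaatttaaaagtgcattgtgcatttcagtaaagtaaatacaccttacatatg
ph-p chrX:2137294-2137394: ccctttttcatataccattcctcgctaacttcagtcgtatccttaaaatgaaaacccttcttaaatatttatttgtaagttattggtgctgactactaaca
lncRNA:CR44619 upstream peak chrX:12751362-12751462: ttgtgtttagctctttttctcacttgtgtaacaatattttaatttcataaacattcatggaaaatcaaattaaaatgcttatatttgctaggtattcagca
CG32772 chrX:4910341-4910441: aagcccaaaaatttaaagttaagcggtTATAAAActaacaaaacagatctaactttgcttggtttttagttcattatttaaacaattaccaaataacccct
lncRNA:CR44619 downstream peak chrX:12752299-12752399: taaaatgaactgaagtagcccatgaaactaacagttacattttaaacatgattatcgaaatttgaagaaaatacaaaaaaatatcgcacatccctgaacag
Tlk chrX:3742163-3742263: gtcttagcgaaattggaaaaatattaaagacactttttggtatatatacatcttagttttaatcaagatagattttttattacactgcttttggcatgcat
CHES-1-like chrX:7709047-7709147: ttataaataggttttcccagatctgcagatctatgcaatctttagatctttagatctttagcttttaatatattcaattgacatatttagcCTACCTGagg
Raf chrX:2297678-2297778: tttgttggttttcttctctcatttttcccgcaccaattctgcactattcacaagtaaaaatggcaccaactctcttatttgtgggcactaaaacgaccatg
CBP chrX:7337030-7337130: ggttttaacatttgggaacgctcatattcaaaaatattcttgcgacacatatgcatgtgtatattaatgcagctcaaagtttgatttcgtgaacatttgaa
Of these 9 windows, 7 held none of the 8 motifs. The CG32772 window held the TATA-box letters TATAAAA, and the CHES-1-like window held CAGGTAG, the site of the early embryonic activator Zelda, on the minus strand. The GC content of the windows was low, from 25.7% at the upstream peak of lncRNA:CR44619 to 39.6% at Raf. Over all 468 X peaks the GC content over 100 bp to each side of a summit was 38.8% ± 6.82 (SD over peaks). It was 39.3% ± 7.03 over the peaks of the other arms, 45.6% ± 9.52 over X relaxed regions without a peak, and 42.5% over the X sequence as a whole.

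The strongest X peak lay at the promoter of Ugalt, which encodes a UDP-galactose transporter, with its summit at -27 bp from the transcription start site (TSS). Its signal was 1234 in the thresholded list, 637.8 in replicate 1 and 601.6 in replicate 3. The next was at ph-p, a gene of the Polycomb group, at 953 in the thresholded list, 462 in replicate 1 and 489.9 in replicate 3. Both replicates were high at each of these peaks and differed by little. A pair of peaks stood on either side of the TSS of lncRNA:CR44619, at -455 bp (signal 686) and 482 bp (signal 612). Both summits also lay within an overlapping gene, lncRNA:Vinr. CG32772 had a peak of 674 in an intron, and Tlk, which encodes the Tousled-like kinase, one of 599. The X held 468 of the 2712 peaks of the whole list, 4 of its 25 strongest and 22 of its 100 strongest.

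The other peaks among the 20 strongest on X had signals between 389 and 541. They lay nearest to Atf3, a gene for a bZIP transcription factor, bves, MFS10, Raf, NFAT, TRAM, CG3726, CG17896, LPCAT, CBP, lncRNA:CR42794, CG3009, asRNA:CR44512 and dnc. Raf encodes a kinase of the MAP kinase cascade, NFAT a transcription factor and dnc a cAMP phosphodiesterase. The summit in bves, at -206 bp from the TSS, was one of 17 X peaks with the Forkhead core letters TGTTTAC within 50 bp. LPCAT, a gene for an acyltransferase of phospholipid remodelling, had 175 in replicate 1 and 241 in replicate 3. At NFAT the order was the other way, with 288 in replicate 1 and 211 in replicate 3. Strong X peaks therefore did not share a direction of the replicate difference.

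Signals of the replicates were compared over the X peaks as deposited. The median signal was 63.2 in replicate 1 (24.5 to 637.8) and 55.0 in replicate 3 (13.9 to 601.6). The log2 ratio of replicate 1 to replicate 3 had a median of 0.16 and an SD of 0.49 over the X peaks, and it was above 0 at 312 of 468. Across peaks, which are not replicates, Spearman's rho of the 2 signals was 0.647 on X and 0.578 on the other arms. Peaks were selected on both replicates together, so these values are a description. Taking the 2712 strongest relaxed regions of each replicate alone, 336 X peaks ranked in both, 55 in replicate 1 only, 62 in replicate 3 only and 15 in neither. With 2 samples in 1 group, no test over samples was possible.

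**Figure D1:**
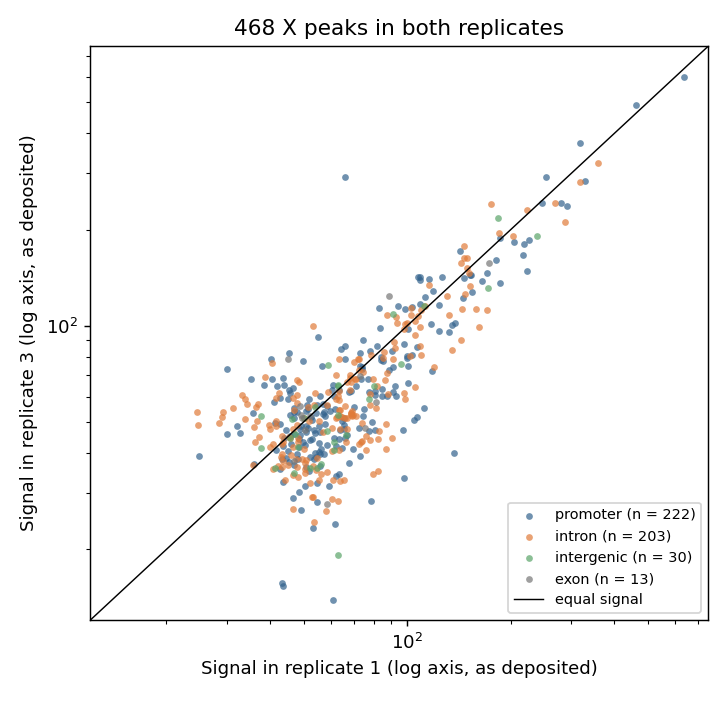
Signal of the 468 X peaks in replicate 1 (x axis) and replicate 3 (y axis), both on log axes in the authors' units, with 1 point per peak, coloured by where the summit lies. The line marks equal signal. The strongest peaks lie near the line, and weak peaks scatter on both sides of it.

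The peaks that departed most from the line were examined one by one. The highest ratios of replicate 1 to replicate 3 were at cib (2.13 on the log2 scale), RpS10b (1.77), lncRNA:CR44619 (1.71) and D2hgdh (1.56). The lowest were at Atf3 (-2.15), Ranbp21 (-1.29), Gapvd1 (-1.13) and spdi (-0.99). At some of them the matching of regions moves with the ratio. The weaker Atf3 promoter peak had a signal of 101.1 and shared a single replicate 3 region, of 291.7, with the stronger Atf3 peak of 541. At RpS10b the overlapping replicate 3 region had a signal of 40.02, while the strongest replicate 3 region within 300 bp had 143, against 137 in replicate 1. At cib, which encodes an actin-binding protein, the strongest replicate 3 region within 300 bp had 34.5 in place of 13.9. At D2hgdh, a gene of D-2-hydroxyglutarate metabolism, at Ranbp21, which encodes an exportin, and at the lncRNA:CR44619 and spdi peaks the wider search returned the same regions. At Gapvd1, a gene for a regulator of Rab5, it raised the replicate 1 signal from 24.5 to 45.7. In all, 4 X peaks shared a replicate 1 region with another X peak, and 6 shared one of replicate 3. With the strongest region within 300 bp, 18 X peaks had a log2 ratio beyond 1 in either direction, compared with 25 by overlap.

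Along the chromosome, peaks were denser in the low-coordinate part. In 1 Mb bins from the low end, the 23 full bins held 1 to 42 peaks, with a median of 21. The highest counts were in the bins of 7 to 8 Mb (42 peaks), 2 to 3 Mb (40) and 6 to 7 Mb (38). The 7 to 8 Mb bin holds CHES-1-like and the locus of CG1677 and CBP, and the 2 to 3 Mb bin holds Ugalt, ph-p and Raf. The fewest were in the last stretch of X from 23 to 23.54 Mb (0 peaks), in 22 to 23 Mb (1 peak, nearest to fog, a gene for a ligand of gastrulation) and in 20 to 21 Mb (5). The sparse end borders the centromere, where heterochromatin lies, and its part in the low counts was not tested. Undetermined bases made up 6.42% of the 22 to 23 Mb bin and 0.332% of the last stretch.

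Relaxed regions thinned out at the same end. The full bins held 41 to 308 of them, and the last stretch held 11, none of which overlapped a peak (0 to 28.5%). The share of relaxed regions that overlapped a peak was 21.8% (16.9 to 27.4) in 7 to 8 Mb, 18.8% (14.3 to 23.9) in 6 to 7 Mb and 15.6% (11.7 to 20.1) in 2 to 3 Mb. It was 6.67% (2.49 to 13.9) in 20 to 21 Mb and 2.44% (0.0617 to 12.9) in 22 to 23 Mb, from 90 and 41 relaxed regions. For X as a whole it was 11.8%. The bins were named by their peak counts and neighbouring regions are not independent, so these intervals cannot test whether the shares stand out. Peaks per bin varied more than relaxed regions did, with a coefficient of variation of 0.5401 and 0.330.

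Across the 23 full bins, Spearman's rho of the peak count was 0.855 with the count of relaxed regions and 0.478 with the count of TSSs. Peaks and relaxed regions come from the same libraries. The counts of top regions of the 2 replicates had a rho of 0.908. The SD of peaks per full bin was 10.99 on X and 10.2 to 13.5 on the 4 large autosomal arms.

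**Figure D2:**
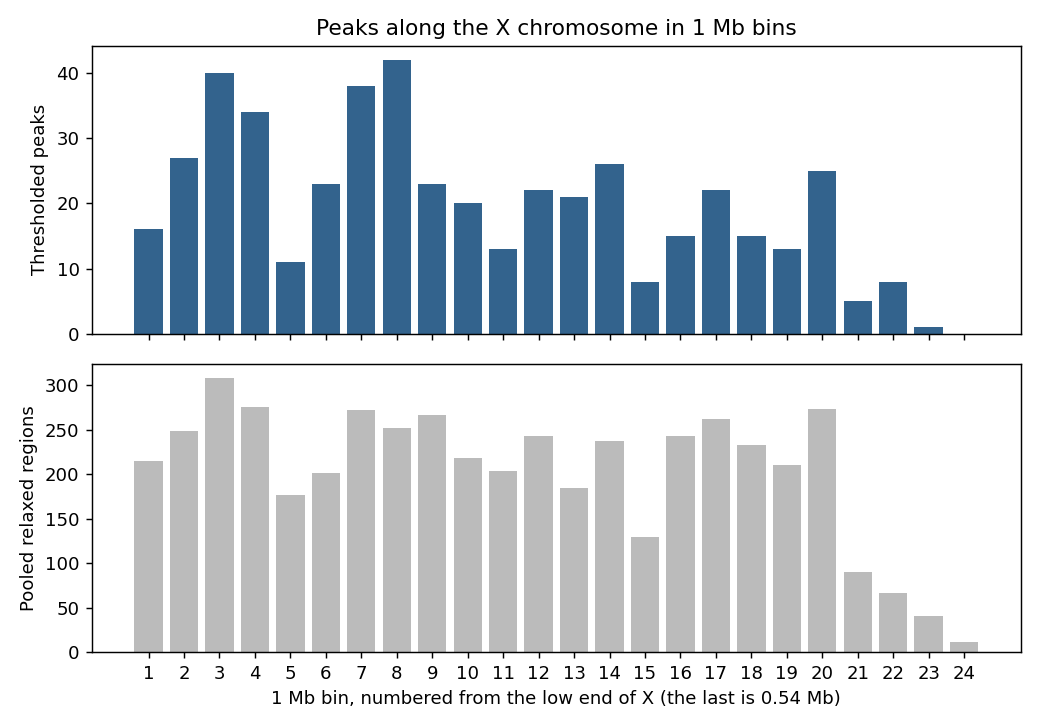
Number of thresholded peaks (upper panel) and pooled relaxed regions (lower panel) in 1 Mb bins of X, numbered from the low end, where bin 24 is the short last one. Bin 8 has the highest count of peaks (42), bin 3 that of relaxed regions (308), and both counts are low in bins 21 to 24.

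The X carried 19.9 peaks per Mb, compared with 19.6 to 21.8 on the 4 large autosomal arms. The median gap between neighbouring summits was 18428 bp, and the shortest was 199 bp. On the 4 large autosomal arms the median gap lay between 16726 and 19029 bp. A neighbour within 10 kb was found for 278 X peaks (59.4%) and for 58.8% of peaks of the other arms, which did not pass the test (Fisher's exact test, odds ratio 1.03, adjusted p = 0.983). The widest gap on X was 1243483 bp, between a peak at lncRNA:CR44711 and the peak at fog, and spanned 41 relaxed regions with signals up to 71.9. The largest gap between peaks on the other arms was 627324 bp, on 3L. Gaps leave out the stretches before the first and after the last peak of an arm, which were long on some arms. The first peak was at 6052859 on 2R and at 4214252 on 3R, and the last on 3L was at 22878911 of 28.11 Mb. The next X gaps were 540400 bp between amn and mal, and 454057 bp between CG1354 and CG2961.

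With summits joined at 10 kb or less, X peaks fell into 40 clusters of 3 or more peaks, 56 pairs and 190 single peaks. On X, 12 pairs of peaks had overlapping regions, and each peak of such a pair was counted in clusters and genes. The clusters of 3 or more held 166 peaks (35.5%), compared with 29.7% to 38.6% on the 4 large autosomal arms. The largest held 12 peaks in 18.4 kb at CHES-1-like, a Forkhead transcription factor gene, and no cluster on another arm held more than 10. The order was reversed in the top regions of each replicate alone. The largest cluster there was 10 on X and 11 on 2L in replicate 1, and 11 on X and 13 on 3L in replicate 3. At CHES-1-like the thresholded signals ran from 79.9 to 231, with the strongest at 288 bp downstream of the outer TSS (113 in replicate 1 and 123 in replicate 3). A second peak stood 87 bp from that TSS, with 122 in the thresholded list, 43.4 in replicate 1 and 15.7 in replicate 3. Its region overlaps that of the strongest peak, and its replicate signals are those of the overlapping regions with the nearest summit. Whether this matching lowered them was not tested, so they are not read as a replicate difference. Of the 12 CHES-1-like peaks, 9 lay in introns.

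The cluster at Raf held 9 peaks in 10.4 kb and stood higher, with signals from 83.4 to 509.9. Within Raf, the peaks at 2262 bp (269 in replicate 1, 242 in replicate 3) and 5251 bp (149 and 163) from the TSS were in introns, and one at 809 bp (173 and 157) was in an exon. Neighbouring clusters in the CG1677 locus held 7 peaks each. One, in 13.7 kb, took in Dok, CG42780 and CBP and reached 408 at the CBP promoter (226 in replicate 1 and 185 in replicate 3). The other, in 29.9 kb, ran past unc-119 towards brk, the gene of a repressor of Dpp targets, and reached 135. All 14 peaks of these clusters lie within lncRNA:CR44357, and 13 of them also within CG1677. The remaining one, with its summit at 7277291, lies past the end of CG1677. Peaks at the short genes nested there therefore count for more than 1 gene.

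A cluster of a different make lay at the innexin genes ogre, Inx7 and Inx2, which encode gap junction proteins, and the adjoining sloth1 and CG3032. It held 6 peaks in 28.4 kb, 5 of them at promoters, and the strongest was intergenic (302 in the thresholded list, 172 in replicate 1 and 131 in replicate 3). The sixth cluster held 5 peaks in 7.49 kb at ph-p and D2hgdh. There the ph-p promoter peak of 953 stood beside peaks of 83.0, 161 and 141 in ph-p. The clusters thus ranged from groups of even, weak peaks to a single strong peak with weak neighbours.

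Of 2813 X genes, 86 held 2 or more peaks in the gene or the 500 bp upstream, 301 held 1 and 2426 held none. Multi-peak genes were long, with a median of 22.9 kb, compared with 4.71 kb for genes with 1 peak and 1.68 kb for genes with none. A long gene has more room for a peak, and the counts were not corrected for length. The 15 genes with 4 or more peaks had a median length of 52.95 kb and held 97 distinct peaks. They were led by lncRNA:CR44357 (15 peaks), CG1677 (13), CHES-1-like (12), kirre (11) and Raf (9). Tlk, dnc and Hr4, a nuclear receptor gene, held 7 each, pigs held 5, and ph-p, NFAT, prage, pico, CG14434 and Mnt, which encodes a partner of Max, held 4 each.

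Among these genes, the number of peaks per length differed widely. CHES-1-like held 4.44 peaks per 10 kb and ph-p 3.29, while kirre, a gene of 394 kb for an adhesion protein of myoblast fusion, held 0.279. Most kirre peaks were weak, between 80.8 and 187, apart from one of 325 (146 in replicate 1 and 177 in replicate 3) in an intron. The dnc peaks included a pair at one promoter (270.4 and 149), with overlapping regions and summits 200 bp apart. Another dnc promoter held the 389 peak (205 in replicate 1 and 183 in replicate 3). At Hr4, 6 of 7 peaks were in introns, the strongest of them 285 (152 in replicate 1 and 134 in replicate 3).

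**Figure D3:**
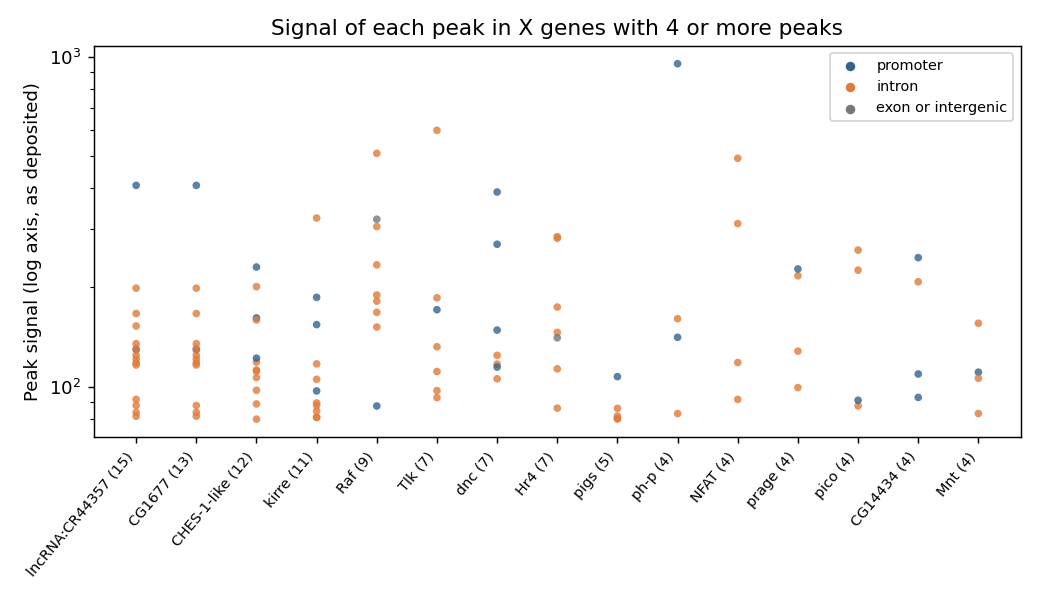
Signal of each thresholded peak (log axis, authors' units) in the 15 X genes with 4 or more peaks, with the number of peaks in brackets and the colour showing where the summit lies. Genes overlap, so a peak can appear under more than 1 gene: all 13 peaks of CG1677 are also peaks of lncRNA:CR44357. The ph-p promoter peak (953) is the highest.

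X peaks were sorted differently over gene parts from those of the other arms. Of 468 X summits, 203 lay in introns (43.4%, 38.8 to 48), compared with 673 of 2244 on the other arms (30.0%, 28.1 to 31.9). The difference passed the test over 15 comparisons (two-sided Fisher's exact test, odds ratio 1.79, adjusted p = 5.358e-07). These X summits lay in introns of 135 genes, and 72 of them in genes with 4 or more peaks. The odds ratio was 1.57 with the strongest peak of each cluster alone (39.2% and 29.1%, adjusted p = 0.0143) and 1.66 without genes of 4 or more peaks (35.3% and 24.8%, adjusted p = 0.000575), in exact tests. The sequence and the relaxed regions moved the same way. Introns outside promoters made up 43.4% of X and 38.6% of the other arms, and they held 38.0% (36.5 to 39.5) of X relaxed regions without a peak and 33.3% (32.6 to 33.9) of those elsewhere. Their part in the difference was not tested.

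Intron peaks on X were as strong as promoter peaks, with median signals of 117 and 115.3. Their summits lay a median of 2262 bp from the nearest TSS, and 46.8% (39.8 to 53.9) were within 2 kb of one. On the other arms the median was 2546 bp and the share 43.4% (39.6 to 47.2). The intervals of the 2 shares overlap.

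Promoters held 222 X summits (47.4%, 42.8 to 52.1), meaning summits within 500 bp of a TSS, compared with 55.5% (53.4 to 57.6) on the other arms (Fisher's exact test, odds ratio 0.723, adjusted p = 0.0117). Within 200 bp the shares were 28.6% and 42.5% (odds ratio 0.542, exact test, adjusted p = 1.424e-07). The median promoter summit was at -110 bp on X and at -57 bp on the other arms, and 73.0% and 69.1% were upstream (odds ratio 1.21, exact test, adjusted p = 0.669). The promoter call at 500 bp did not hold in the top regions of replicate 1 alone (odds ratio 0.841, exact test, adjusted p = 0.264), among the stronger 50% of peaks (0.720, adjusted p = 0.192), with the strongest peak of each cluster (0.789, adjusted p = 0.291) or without genes of 4 or more peaks (0.793, adjusted p = 0.166). The lists other than that of replicate 1 were smaller, with 236, 286 and 371 X peaks. Promoter shares of relaxed regions without a peak were 30.5% (29.1 to 31.9) on X and 29.9% (29.3 to 30.5) elsewhere. Intergenic sequence held 30 X summits (6.41%) against 11.9% on the other arms, and exons held 13 (2.78%) against 2.58%. These last shares were not tested.

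**Figure D4:**
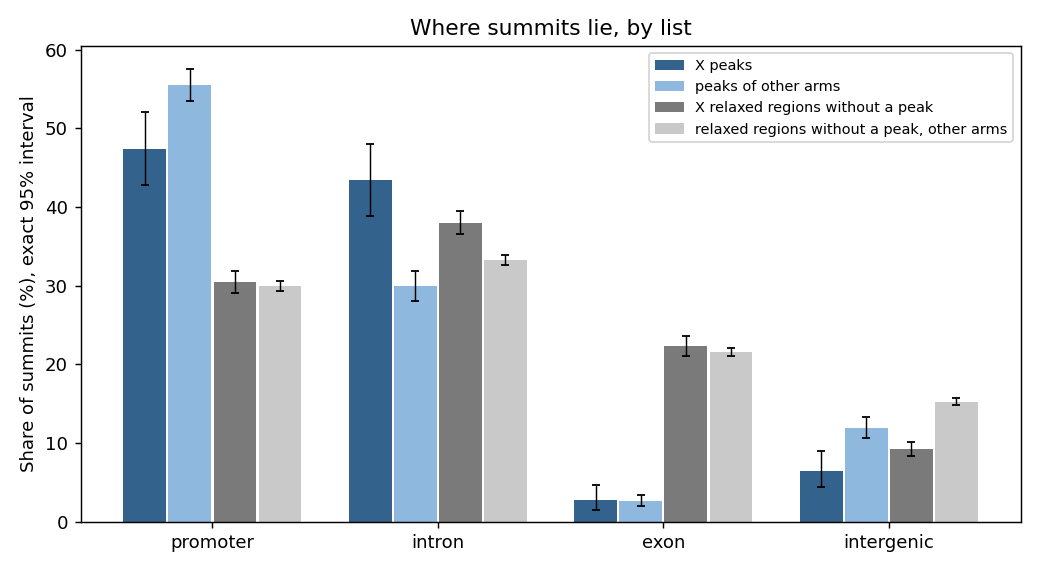
Share of summits in promoters (within 500 bp of a TSS), introns, exons and intergenic sequence, for X peaks, peaks of the other arms, and pooled relaxed regions without a peak on X and elsewhere. Bars are percent with exact 95% intervals. The X intron bar (43.4%) stands above that of the other arms (30.0%), and the X promoter bar (47.4%) below (55.5%).

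Counted by gene, 270 of 1321 X genes with a relaxed summit within 500 bp of a TSS had a peak there, or 20.4% (18.3 to 22.7). The share was 22.6% on the other arms and did not pass the test (Fisher's exact test, odds ratio 0.882, adjusted p = 0.273), while it did with a window of 200 bp (18.9% and 24.2%, odds ratio 0.728, exact test, adjusted p = 0.00215). Of the 222 promoter peaks, 63 served more than 1 gene, and each such gene was counted. The gene lists below are described beside the 20.4%, without a test, and their counts are of promoter peaks only. Their members were chosen with earlier results of these data known, so the intervals cannot test a difference from that share. List names that did not match the annotation were not counted.

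Cytoplasmic ribosomal protein genes had a promoter peak in 11 of 14 cases (78.6%, 49.2 to 95.3). The strongest were at RpS10b (273), RpL22 (271) and RpS28b (254), followed by RpS5a (169), RpS15Aa (166) and RpL17 (151). Replicates 1 and 3 gave 145 and 122 at RpL22, and 116 and 140 at RpS28b. The 3 without a peak were RpL35, RpS6 and RpS14b, and RpS14b is a near copy of its neighbour RpS14a, which had a peak of 92.5. Of all X peaks, 2 shared a 31-base word with each other, those at RpL7A and RpL17. The summits of the 11 genes lay between -87 and 21 bp from the TSS.

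Chromatin and transcription regulators had a promoter peak in 6 of 15 testable cases (40%, 16.3 to 67.7). Besides ph-p these were Top1, which encodes topoisomerase I (167, or 85.3 in replicate 1 and 77.4 in replicate 3), Ubi-p5E, a polyubiquitin gene (111), fs(1)h, which encodes a BET bromodomain protein (99.2), trr, a histone methyltransferase gene (93.5), and HP1b (80.4). Ubi-p5E was counted because the list as written held it. The fs(1)h peak was also the promoter peak of mys, a divergent integrin gene. Of the 9 testable members without a promoter peak, br (140.5) and Myc (116) held a peak elsewhere in the gene. Untestable members were left out of these counts, and 1 of them, Smr, held 3 intron peaks of up to 124. Signalling genes had a promoter peak in 8 of 25 (32.0%, 14.9 to 53.5). The strongest were at sgg, the GSK3 kinase gene (318), Ptp4E (208), ogre (159), dlg1 (128), the receptor gene N (103) and the integrin gene if (100.9). The remaining members were mys and csw. In N, the replicate signals were 57.2 and 53.6. Of the 17 members without a promoter peak, 5 held peaks elsewhere in the gene, namely Raf and kirre, described above, norpA (380.5), sog (up to 132) and Pvf1 (89.4). Inx2 and Ptp10D were left out of these counts, because their names as listed did not match the annotation. Inx2 had a promoter peak of 84.2, and Ptp10D held 2 intron peaks of up to 119.8.

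The remaining lists had shares at or below that of all testable X genes. The intervals of the chromatin and signalling lists also included that share. Developmental regulators had a promoter peak in 3 of 19 (15.8%, 3.38 to 39.6), at CHES-1-like, elav, which encodes an RNA-binding protein (184), and hang (88.4). Of the 16 without one, 4 held peaks elsewhere in the gene, namely CG32772 (674), Lim1 (133), ct (up to 122) and bi (92.3). Cell cycle and replication genes had a promoter peak in 2 of 14 (14.3%, 1.78 to 42.8), at fzr (97.2) and CkIalpha (95.9), and Cdc7 held a peak of 91.5 elsewhere in the gene. Of the dosage compensation and sex determination genes, 1 of 5 testable members had a promoter peak. It was Sxl, the switch gene of sex determination, where a peak of 138 (74.0 in replicate 1 and 74.5 in replicate 3) stood 389 bp from a TSS. A second Sxl peak, in an intron, had 112 in the thresholded list, 76.1 in replicate 1 and 40.98 in replicate 3. The testable members mof, snf, upd1 and run had no peak at a promoter or elsewhere in the gene. The RNA genes roX1 and roX2 were left out of this count, because their names as listed did not match the annotation, and are described below.

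Neither RNA gene of dosage compensation had a thresholded peak at its own TSS. At roX1 no thresholded peak was present, and the strongest relaxed region in the gene had a signal of 44.4 in the pooled list, 26.5 in replicate 1 and 23.7 in replicate 3. At roX2 (chrX:11579065-11580432) a peak of 93.8 had its summit at 11580474, just past the end of the gene, with 53.6 in replicate 1 and 47.3 in replicate 3. That summit is at -298 bp from the TSS of nod, a kinesin-like gene, and was classed as its promoter peak. The pooled relaxed region nearest to the TSS had a signal of 29.1 at roX1 and 23.6 at roX2. The letters GAGAGAGA, which also occur in high-affinity sites of the dosage compensation complex, stood within 50 bp of 6 X summits (1.28%) and of 1.07% of summits elsewhere (Fisher's exact test, odds ratio 1.20, adjusted p = 0.946). They were in 0.783% of X windows of the same length in 0.519% of windows of the other arms, and in 1.54% (1.19 to 1.96) of X relaxed regions without a peak. The tagged gene CG11398 is itself on X (chrX:1211989-1215156, minus strand). It had 1 peak at -13 bp, of 82.5 in the thresholded list, 43.6 in replicate 1 and 32.4 in replicate 3, which is close to the lowest signal on X. The transgene may carry the same sequence, and its part in this signal was not tested.

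The motifs were searched for on each strand, at most 50 bp from a summit. They were TATCGATA (the DNA replication-related element), TGTTTAC (the Forkhead core), TAATTA (a homeodomain core), GAGAGAGA (a GA repeat), CAGGTAG (the Zelda site), TATAAAA (the TATA box), CACACACA (a CA repeat) and, as a control, AAAAAAAA, which can share letters with TATAAAA. None of them was found at 342 of 468 X peaks. AAAAAAAA was more frequent at X peaks, at 39 (8.33%, 5.99 to 11.2) compared with 4.95% (4.09 to 5.93) on the other arms (Fisher's exact test, odds ratio 1.75, adjusted p = 0.0263). X sequence held it as often, in 8.34% of all 101 bp windows on X and 4.83% on the other arms, and in 8.10% of X relaxed regions without a peak. The call was lost without genes of 4 or more peaks (odds ratio 1.75, exact test, adjusted p = 0.0745) and in the stronger 50% of peaks (1.63, adjusted p = 0.326). Both lists were smaller, with 371 and 236 X peaks, and the odds ratio of the first was unchanged. The Forkhead letters TGTTTAC were at 3.63% of X peaks and 5.75% of the others, which did not pass the test (odds ratio 0.618, exact test, adjusted p = 0.267). They were in 1.72% of X windows and 2.12% of X relaxed regions without a peak. The 12 remaining comparisons of X with the other arms, of 15, did not pass the test, including the share of peaks above the median signal (50.4% and 49.9%, exact test, adjusted p = 0.983).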

How the data were processed

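Per the notes deposited with the files, the authors derived a relaxed list from the alignments of each replicate and a control, a pooled relaxed list, and an optimal list thresholded by the irreproducible discovery rate. Which aligner and peak caller were used is not given in the sources used here, and the control was not used here. The signal per region is as deposited by the authors, with unstated normalization. The deposited -log10 of the q-value was not used for ranking, because 354 of 468 X peaks shared the highest value. Read depth is unknown.

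Summits were placed on the Release 6 genome (dm6) and the Ensembl release 115 annotation, without transposons. A replicate's signal is that of its overlapping region (at least 1 bp) with the nearest summit. Each X peak had one in both replicates. Summits within 500 bp of a TSS were classed as promoter, then exon, intron or intergenic. Within a gene, peaks were counted with 500 bp upstream. X peaks and those of 2L, 2R, 3L, 3R and 4 were compared by Fisher's exact test, two-sided, Benjamini-Hochberg adjusted over 15 comparisons at 0.05. Regions are not replicates and neighbouring peaks are not independent, so these tests describe how peaks of this list are sorted. The same test and the overlap step were checked on simulated data.

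Genes named are CG11398, roX1, roX2, the nearest genes of the 20 strongest X peaks, genes with 4 or more peaks, those of the 6 largest clusters and of the 4 highest and 4 lowest replicate ratios, and up to 6 members per gene list. The members and lists were chosen with earlier results of these data known. Alternatives were other windows, linking distances and bins, the dm3 lists, the stronger 50% of peaks, no chromosome 4, and each replicate left out by taking the 2712 strongest regions of the other. Settings with 1 peak per cluster, without genes of 4 or more peaks, and with replicate regions within 300 bp were chosen after seeing the data. Python 3.11.15, numpy 2.4.6, pandas 2.3.3, scipy 1.17.1 and matplotlib 3.10.9 were used.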

Additional observations from a re-analysis of the deposited data

How the results depend on the processing

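The intron difference between X and the other arms passed the test in every alternative run on it (odds ratio 1.501 to 1.85). Promoter windows of 200 and 1000 bp, which also change what counts as intron, were not run on it. Of 82 recomputed odds ratios, 60 kept their direction and side of the threshold, 14 changed direction, 6 lost the call and 2 gained one. Of 44 values without a test, 7 moved. In the stronger 50% of peaks, the odds ratios were 0.720 for promoters, 1.63 for AAAAAAAA, 0.957 for upstream promoter summits and 1.09 for the replicate ratio, none past the test. That list, smaller by construction, held 236 X peaks, overlapped 5.97% of relaxed regions, and gave a median gap of 36746 bp, 13 clusters and 37 genes with 2 or more peaks. With each replicate left out, odds ratios ran from 0.735 to 0.841 for promoters, 0.875 to 0.908 for a neighbour within 10 kb, 0.975 to 1.16 for signal above the median, 0.748 (past the test) to 1.16 for the replicate ratio, 0.814 to 1.12 for TAATTA, 0.779 to 1.91 for GAGAGAGA and 0.827 to 1.62 for CACACACA, and rho of the replicate signals from 0.736 to 0.756. In these lists the regions were picked on 1 replicate, while the replicate ratio and rho still used the signals of both. Neither is therefore independent of how the regions were picked. Promoter windows of 200 bp gave 0.728 for X genes with a promoter peak, past the test. Linking at 5 kb left 24 clusters, and at 20 kb the neighbour odds ratio was 0.848. Motif windows of 100 bp gave 1.05 for TATCGATA, 0.612 for GAGAGAGA, 0.9497 for TATAAAA and 1.38 for CACACACA. Of the settings chosen after seeing the data, the strongest peak of each cluster gave 0.789 for promoters, and leaving out genes of 4 or more peaks gave 0.793 for promoters and 1.75 for AAAAAAAA. The causes were not tested. No paired analysis was possible because there was only 1 group. Unknown read depth limits any statement about weak regions.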
